A study of Zea mays subsp. mays with 11 samples.

Results

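The effect of losing AGO18 on Argonaute-loaded phasiRNAs was described in 5 mm maize anthers, which had completed meiosis. All 659 PHAS loci of the deposited CPM table were used, and they were separated by name into 430 21-PHAS and 229 24-PHAS loci. The comparison took the 3 ago18HM-5mm libraries against the 3 ago18HT-5mm libraries, which are 6 of the 11 libraries of the series. ago18HM plants were homozygous for frameshift deletions in *ago18a* and *ago18b* made by CRISPR and for a *Mutator* transposon insertion in *ago18c*. ago18HT plants were siblings heterozygous at all 3 genes, so the controls carried the same alleles and were not wild type. Plants of both genotypes were mostly of the B73 background, were free of the editing transgene and were grown in a greenhouse, and the replicates came from distinct plants. The table holds PHAS loci and no transcripts, so the *AGO18* mRNAs and anther cell markers could not be checked in it.

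PhasiRNAs are small RNAs cut at regular intervals from long noncoding precursors that grass anthers transcribe in large amounts. In maize, miR2118 triggers the 21-nt class, which is cut by DCL4, and miR2275 triggers the meiotic 24-nt class, which is cut by DCL5. A small RNA acts only after an Argonaute protein has bound it, and plant Argonautes choose small RNAs partly by their 5′ nucleotide. AGO18 is an Argonaute clade found in grasses that is abundant in anthers. The TraPR column isolates small RNAs held by Argonaute proteins, so the values below describe loaded small RNAs. Each is a CPM, a level relative to the other reads of its library, and not an absolute amount.

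The study's locus annotation gives the most abundant small RNA of each locus, here called its major RNA. The sequences printed first belong to the 24-PHAS loci on which the results turn, with the 5′ nucleotide in capitals.
B73_24PHAS_21372: Gaguacggugccaaaaaaaacuca
B73_24PHAS_35075: Augggucuggcacaacgucacagu
B73_24PHAS_21380: Acaaugcucaucgacaugacacuc
B73_24PHAS_48391: Aagacacuguucuacuugcuucuc
B73_24PHAS_4294: Acacuaaucggauggucgucuuga
B73_24PHAS_35073: Augaagccgauuguggacaucgau
B73_24PHAS_30716: Auacacuucucgcguuaacugcuc
B73_24PHAS_35105: Acaaccacugcuagccacaaccuc
B73_24PHAS_36488: Agcugaacuacaaauuaugcgaga
The first 7 are meiotic loci that fell in the mutant, B73_24PHAS_35105 is the premeiotic locus that fell, and B73_24PHAS_36488 is the most abundant meiotic locus that was not called. The sequence of B73_24PHAS_35075 is also the major RNA of B73_24PHAS_35082 and of B73_24PHAS_56665 on an unplaced scaffold, and that of B73_24PHAS_30716 is also the major RNA of B73_24PHAS_30735, so the loci of each such set can share reads.

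For the 21-PHAS class, 3 neighbouring loci that fell, 1 locus that rose and the most abundant locus are shown in the same way.
B73_21PHAS_6425: Agaagauucgucguugccggg
B73_21PHAS_6427: Aguaggcgucgagacuuguuu
B73_21PHAS_6428: Auugucuuaacuguguuccgu
B73_21PHAS_21386: Aaugcacuggaguaggcacuc
B73_21PHAS_21116: Agagccuccguacgauucgug
Across the table, the major RNA had 21 nt at 429 of the 430 21-PHAS loci and 24 nt at 227 of the 229 24-PHAS loci. It began with A at 144 of the 154 meiotic 24-PHAS loci (93.5%), at 74 of the 75 premeiotic 24-PHAS loci (98.7%) and at 324 of the 21-PHAS loci (75.3%).

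The 6 libraries held 574309 to 3201808 reads in PHAS loci. The step between CPM values gave a denominator of 6353477 to 9708348 reads in ago18HT-5mm and of 17805878, 5419067 and 6675685 reads in ago18HM-5mm replicates 1, 2 and 3. The median locus had 504 to 1614 reads per library. The libraries were not all alike within a genotype. In a principal component analysis of log2 values, the first component (82.1% of the variance) separated the genotypes. The second (10.2%) set ago18HT replicate 3 and ago18HM replicate 1 apart from the other 4 libraries. Loci that split the libraries in the same way are described at the end, and their part in this component was not tested. The SD of log2 values was larger among the ago18HM than among the ago18HT libraries at 313 of 430 21-PHAS, 59 of 75 premeiotic and 96 of 154 meiotic loci.

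Loss of AGO18 was accompanied by a loss of the meiotic 24-nt class from the loaded pool. The sums over the 154 meiotic loci were 266871, 249651 and 219707 CPM in the ago18HT libraries and 16419, 16838 and 11068 CPM in the ago18HM libraries. No ago18HM library came near the lowest ago18HT library. All PHAS loci together held 30.5% to 34.7% of the CPM denominator in the ago18HT libraries and 10.4% to 11.7% in the ago18HM libraries. Meiotic phasiRNAs made up 74.9% ± 2.62 of all PHAS CPM in ago18HT and 13.5% ± 2.63 in ago18HM (SD, n = 3 each). The 21-nt class made up 22.6% ± 2.59 in ago18HT and 78.8% ± 3.89 in ago18HM, so that it held the largest part of the PHAS CPM in the mutant. The premeiotic 24-nt class made up 2.56% ± 0.10 and 7.72% ± 1.47 of the PHAS CPM. These shares are bound to sum to 100%, so a lower meiotic share raises the others. In a two-sided exact permutation test, each of the 3 shares gave p = 0.1, the smallest p that 3 against 3 libraries allow (adjusted p = 0.114 over 8 tests). In these bulk anthers, fewer cells of a type, less phasiRNA per cell and less loading cannot be told apart.

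**Figure D1:**
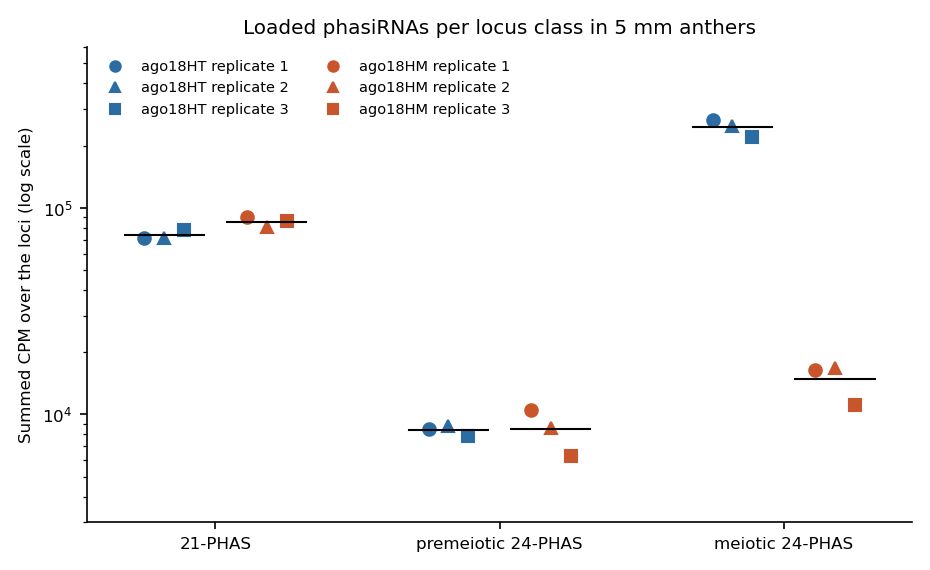
Summed CPM (log scale) of each locus class in the 6 libraries of 5 mm anthers, with 1 symbol per library and a line at the mean of each genotype. Meiotic 24-PHAS loci sit between 219707 and 266871 CPM in ago18HT and between 11068 and 16838 CPM in ago18HM, while the other classes lie close together.

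The loss reached most meiotic loci. With limma, 130 of 154 meiotic loci (84.4%) fell in ago18HM by the rule used throughout (adjusted p under 0.05, fold change over 1.5), as did 21.1% of all loci. The genotypes did not overlap at 138 meiotic loci, with the ago18HM libraries lower, an order found at 24.7% of all loci. No meiotic locus was higher, and 0 were higher at an unadjusted p below 0.05 or in a limma-voom fit. The median meiotic log2 fold change was -4.03 on the log2(CPM + 1) scale, against 0.01 over all 659 loci. The mean CPM left in ago18HM was 5.64% of the ago18HT mean at the median meiotic locus, with quartiles of 3.88% and 11.6%. It was below 5% at 66 loci, below 10% at 110 loci and above 50% at 16 loci. Over the wide range of levels in the class, log2 mean levels in both genotypes had r = 0.911 across the 154 loci (a description over loci that share libraries). This does not mean that the most abundant loci kept their order.

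The deepest decreases were found at loci of very different abundance. B73_24PHAS_21372 (chromosome 4, 7834848 to 7834929), a locus of 82 bp that overlaps the protein-coding gene LOC111591296, had 231, 365 and 205 CPM in ago18HT and 5.17, 6.64 and 4.49 CPM in ago18HM. Its log2 fold change was -5.35 ± 0.55 (SE, limma adjusted p = 2.82e-05). B73_24PHAS_21380 lies on the same chromosome (7901820 to 7902929) and had 3331, 3722 and 3338 CPM against 86.9, 97.2 and 75.2 CPM. It kept 2.50% of its ago18HT mean, and its log2 fold change was -5.31 ± 0.54 (adjusted p = 2.63e-05).

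B73_24PHAS_48391 (chromosome 9, 14069161 to 14071221) had 2432, 2370 and 1681 CPM in ago18HT and 51.0, 64.8 and 49.3 CPM in ago18HM. B73_24PHAS_4294 (chromosome 1, 183046238 to 183047725), which overlaps the transcribed pseudogene LOC100276471, had 7272, 5560 and 4501 CPM against 154, 170 and 133 CPM. Both groups were tight beside the gap between them at these loci. The log2 fold changes were -5.26 ± 0.26 (adjusted p = 1.53e-06) and -5.22 ± 0.30 (adjusted p = 2.01e-06). B73_24PHAS_35075 had 1391, 1442 and 1688 CPM in ago18HT and 45.2, 43.7 and 24.3 CPM in ago18HM. B73_24PHAS_35082, with the same major RNA, had 1380, 1437 and 1671 CPM against 48.9, 43.0 and 28.3 CPM. The near-equal values of this pair cannot be assigned to either locus, or to B73_24PHAS_56665, because reads that map to several loci were counted at each. Leaving out the 43 loci that share a major RNA kept 112 of the remaining 136 meiotic loci called lower.

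The 5 most abundant meiotic loci of the heterozygous anthers all fell. B73_24PHAS_35073 (chromosome 6, 38832321 to 38833507) led with 9354, 9282 and 10066 CPM in ago18HT and had 335, 374 and 213 CPM in ago18HM (log2 fold change -4.99 ± 0.47, adjusted p = 1.46e-05). B73_24PHAS_30716 (chromosome 5, 161027802 to 161029669) had 8683, 10003 and 9361 CPM against 480, 587 and 345 CPM. B73_24PHAS_30735 overlaps the long noncoding RNA gene LOC103627135 and had 7818, 9509 and 8913 CPM against 357, 541 and 325 CPM. The 3 loci kept 3.21%, 5.03% and 4.66% of their ago18HT means.

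The next highest loci were both on chromosome 1, and their libraries did not overlap either. B73_24PHAS_4394 had 10092, 9575 and 5074 CPM in ago18HT and 502, 822 and 433 CPM in ago18HM. B73_24PHAS_4228 had 8732, 8815 and 6880 CPM in ago18HT and 527, 404 and 286 CPM in ago18HM. B73_24PHAS_53477 (chromosome 10) kept more than these, with 3229, 3255 and 2753 CPM against 526, 542 and 325 CPM (15.1% of the ago18HT mean). This placed it among the 5 most abundant meiotic loci of the mutant, although its log2 fold change of -2.76 ± 0.26 was also a called decrease (adjusted p = 1.39e-05).

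**Figure D2:**
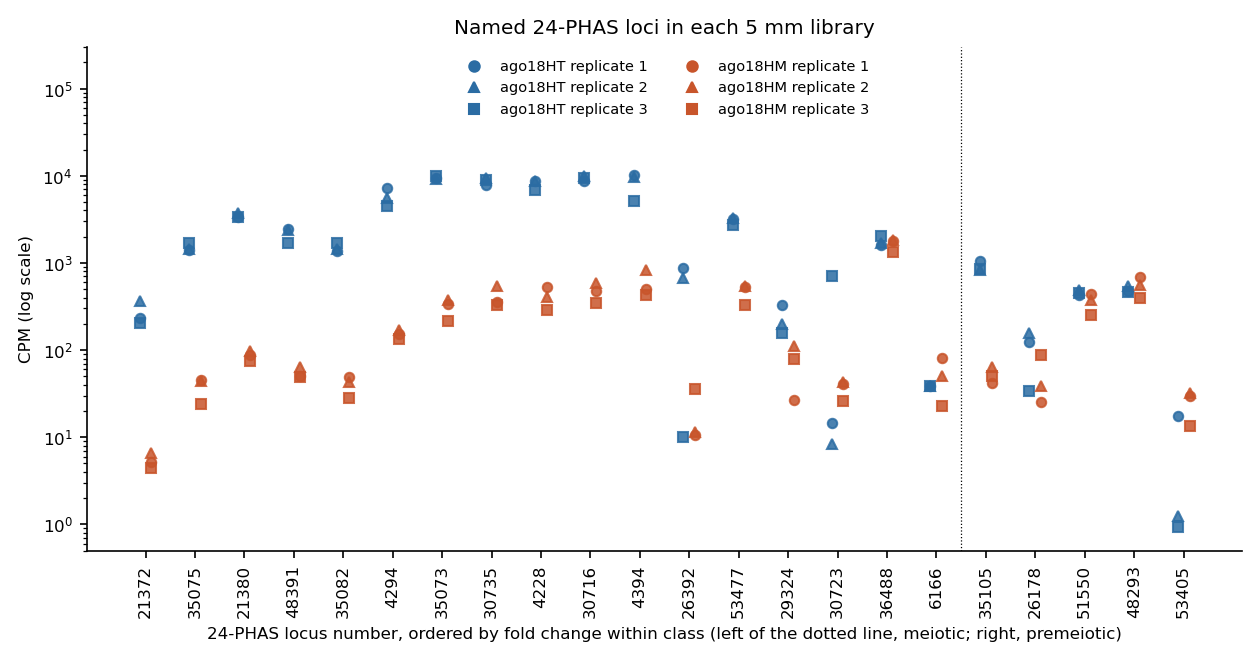
CPM (log scale) of the named 24-PHAS loci in each 5 mm library, with meiotic loci left and premeiotic loci right of the dotted line, each ordered by log2 fold change. The 6 loci at the left differ at least 37.3-fold between genotype means, while B73_24PHAS_36488 overlaps and B73_24PHAS_26392 and B73_24PHAS_30723 differ within ago18HT.

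The most abundant meiotic loci held a slightly larger part of the meiotic sum in the mutant. The 10 most abundant meiotic loci of each library held 29.8%, 31.5% and 31.1% of the meiotic sum in ago18HT and 35.2%, 36.8% and 35.4% in ago18HM. The genotypes did not overlap, and the exact permutation p was 0.1 (adjusted p = 0.114). Of the 10 highest loci by group mean, 5 were the same in both genotypes. The locus that led in the mutant, B73_24PHAS_36488, accounted for 11.2% of the summed ago18HM means and for 0.730% of the summed ago18HT means. This locus was not called lower, and the ago18HM shares above include it. They were not computed without it, so they do not show whether the loci that fell became more concentrated.

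B73_24PHAS_36488 stood apart from other abundant meiotic loci. It lies on chromosome 6 (111847220 to 111847676) and overlaps the protein-coding gene LOC103629764. It had 1615, 1699 and 2063 CPM in ago18HT and 1781, 1841 and 1321 CPM in ago18HM. The genotypes overlapped, and the log2 fold change was -0.13 with a 95% interval of -0.73 to 0.47 (adjusted p = 0.804). In 2 mm anthers the same locus had 88.0, 54.0 and 79.6 CPM in ago18HT and 40.0 and 74.1 CPM in ago18HM, so it was low in both genotypes at that length. The interval at 5 mm excludes a decrease of the size seen at the median meiotic locus.

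The other 23 meiotic loci that were not called were mostly weak. The 24 loci had a median ago18HT level of 6.58 CPM against 1260 CPM for the 130 called loci, and 16 of the 24 were below 15 CPM against 7 of the 130. Together the 24 loci held 1.22% of the summed ago18HT means and 13.1% of the summed ago18HM means. Most of both shares came from B73_24PHAS_36488, which alone held 0.730% and 11.2%. A protein-coding RefSeq gene overlapped 16 of these 24 loci (66.7%) and 14 of the 130 called loci (10.8%). All 24 had a major RNA beginning with A, as had 120 of the 130 called loci (92.3%). By coding overlap, the median log2 fold change was -0.70 over 30 loci in protein-coding genes, -4.44 over 14 loci in noncoding RefSeq genes and -4.16 over 110 loci outside RefSeq genes.

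Level and coding overlap went together. When the class was split into 3 groups by mean abundance, 29 of 51 loci of the lowest group were called lower, 49 of 51 of the middle group and 52 of 52 of the highest group. In the lowest group 6 of 21 loci in protein-coding genes and 22 of 29 loci outside RefSeq genes were called, and their median ago18HT levels were 3.0 and 86.3 CPM. In the upper groups 8 of the 9 loci in protein-coding genes were called, all but B73_24PHAS_36488. The part of level in this difference was not tested.

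**Figure D3:**
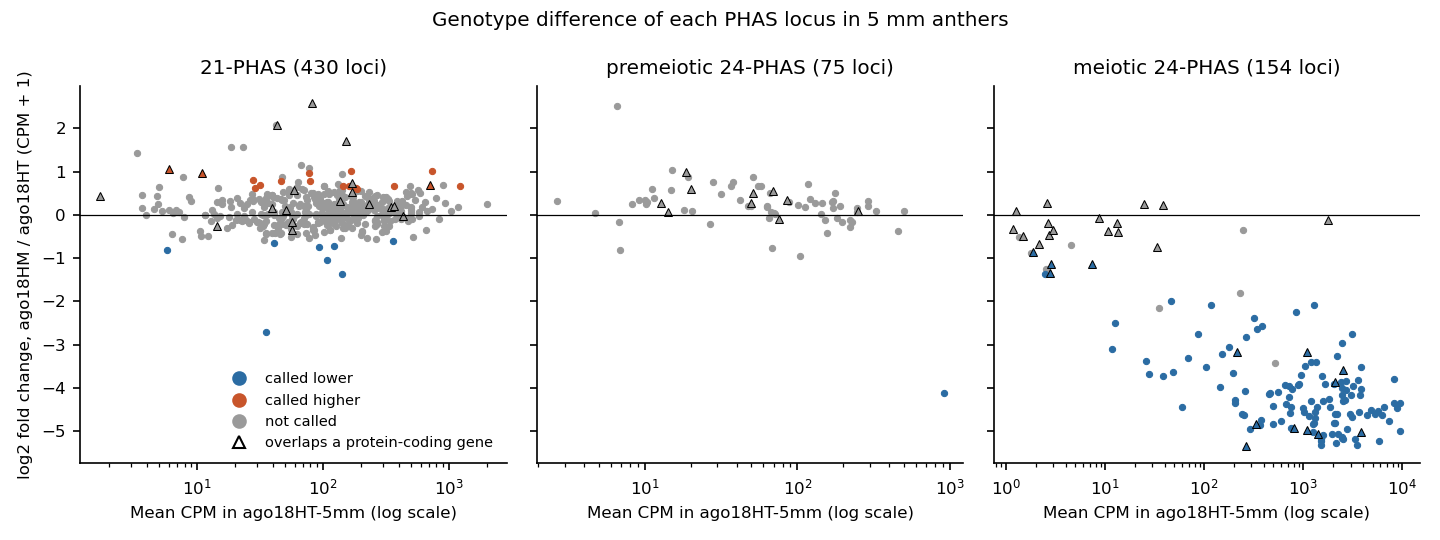
Log2 fold change (ago18HM over ago18HT, on log2(CPM + 1)) of each locus against its mean CPM in ago18HT (log scale), with called loci in colour and triangles for loci that overlap a protein-coding RefSeq gene. Of the meiotic loci, 130 of 154 are called lower, and the loci near 0 are mostly weak triangles, with B73_24PHAS_36488 at 1793 CPM the exception.

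Some uncalled meiotic loci differed more within a genotype than between genotypes. B73_24PHAS_26392 (chromosome 4) had 876, 677 and 10.04 CPM in ago18HT and 10.7, 11.4 and 35.4 CPM in ago18HM. B73_24PHAS_30723 (chromosome 5) had 14.6, 8.34 and 710 CPM in ago18HT and 41.0, 43.2 and 26.2 CPM in ago18HM. The first was high in ago18HT replicates 1 and 2 and the second only in ago18HT replicate 3, and neither was called (limma adjusted p = 0.414 and 0.951). Their 95% intervals of the log2 fold change were -9.05 to 2.20 and -5.29 to 4.59. Both include a decrease as deep as at the median meiotic locus, so a genotype difference was not settled there. B73_24PHAS_29324 had 329, 200 and 157 CPM against 26.8, 111 and 78.0 CPM, which did not overlap, yet its log2 fold change of -1.80 ± 0.78 was not called (adjusted p = 0.152). B73_24PHAS_6166, which overlaps the protein-coding gene LOC103643566, had 38.7, 38.9 and 38.7 CPM in ago18HT and ranged from 22.8 to 81.4 CPM in ago18HM (adjusted p = 0.796).

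The decrease was seen on every chromosome that held more than 3 meiotic loci, with medians from -2.95 on chromosome 10 (11 loci) to -4.58 on chromosome 4 (26 loci). On chromosome 6, a window of 2000000 bp on either side of the premeiotic locus B73_24PHAS_35105 held 13 meiotic loci and no other premeiotic locus. All 13 fell, with log2 fold changes between -3.37 and -5.33. The background is high, since 84.4% of all meiotic loci and 19 of the 21 on chromosome 6 were called lower. B73_24PHAS_35073, B73_24PHAS_35075 and B73_24PHAS_35082 are among the 13, and the latter pair shares a major RNA.

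B73_24PHAS_35105 (chromosome 6, 40122405 to 40125870) was the only premeiotic locus of 75 that was called. It had 1048, 826 and 854 CPM in ago18HT and 42.2, 64.0 and 50.6 CPM in ago18HM, and was the most abundant premeiotic locus of the heterozygous anthers. Its log2 fold change was -4.11 ± 0.34 (adjusted p = 6.81e-06), within the range of its meiotic neighbours, and it was called in all 26 alternative fits. The 5.75% of the ago18HT mean that it kept is close to the median of the meiotic class.

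The rest of the premeiotic class did not share this decrease. The median log2 fold change of the 75 loci was 0.22, and 59 of them were above 0. Without the meiotic loci in the CPM denominator the median was -0.16 and 22 were above 0, so the sign of this small shift depends on the scaling. The ago18HM libraries were the higher ones without overlap at 7 loci, or 9.33% of the class, against 15.3% of all loci. No premeiotic locus was called higher by limma or limma-voom, 0 were higher at an unadjusted p below 0.05, and 2 were lower at that level.

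The 2 next most abundant premeiotic loci, both on chromosome 9, overlapped between genotypes. B73_24PHAS_48293 had 478, 548 and 468 CPM in ago18HT and 683, 559 and 392 CPM in ago18HM. B73_24PHAS_51550 had 427, 492 and 449 CPM against 444, 374 and 256 CPM. Their 95% intervals of the log2 fold change, -0.72 to 0.92 and -1.07 to 0.30, leave room for changes in either direction, but not for one as large as at B73_24PHAS_35105. The widest premeiotic differences that were not called came from unequal libraries. B73_24PHAS_53405 had 17.5, 1.24 and 0.94 CPM in ago18HT and 30.1, 32.1 and 13.5 CPM in ago18HM (log2 fold change 2.51 ± 1.6, adjusted p = 0.347). B73_24PHAS_26178 had 123.4, 156 and 34.0 CPM against 25.3, 38.8 and 88.2 CPM (log2 fold change -0.96 ± 0.78, adjusted p = 0.460).

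Few 21-PHAS loci were called, and the direction of the class depended on the scaling. As deposited, 17 of 430 loci (3.95%) were called higher, against 2.58% of all loci, and 8 (1.86%) were called lower, against 21.1% of all loci. Meiotic loci made up 130 of the 139 loci called lower. The median log2 fold change was 0.11, with quartiles of -0.10 and 0.34. When the CPM denominator excluded the meiotic loci, the median of all loci moved from 0.01 to -0.37, the 21-PHAS median was -0.26, and 0 loci were higher and 38 lower (5 were higher at an unadjusted p below 0.05). Centring each library on its 21-PHAS loci gave 8 higher and 8 lower. Median ratio scaling, which moved the median of all loci to 0.12, gave 33 higher and 5 lower. The share of 21-PHAS calls that were higher was thus 68.0% as deposited, 0% without the meiotic loci, 50% after centring and 86.8% with median ratios.

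The 8 21-PHAS loci called lower were also called lower without the meiotic loci in the denominator. That scaling lowers every ago18HM value against ago18HT by construction, so it could not test these decreases. Under median ratios 5 21-PHAS loci were lower. The deepest 3 lie within 29121 bp on chromosome 1 (255243329 to 255272449), and their sequences are printed above. B73_21PHAS_6427 had 33.8, 37.9 and 35.3 CPM in ago18HT and 6.51, 4.43 and 3.30 CPM in ago18HM (log2 fold change -2.71 ± 0.23, adjusted p = 8.71e-06). B73_21PHAS_6425 had 152, 125 and 152 CPM against 41.6, 63.3 and 63.1 CPM (-1.36 ± 0.24, adjusted p = 0.00155). B73_21PHAS_6428 had 109, 95.7 and 118 CPM against 43.7, 61.6 and 51.2 CPM (-1.04 ± 0.17, adjusted p = 0.00103). The genotypes did not overlap at these 3 loci. Over the class, in CPM as deposited, the ago18HM libraries were lower without overlap at 23 loci (5.35%), where the background over all 659 loci was 24.7%, and higher without overlap at 94 loci (21.9%), where it was 15.3%. Meiotic loci made up 138 of the 163 loci behind the 24.7%, so that background mostly reflects the meiotic class.

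Adjacent 21-PHAS loci on the same strand did not fall with them. Of 9 loci within 50000 bp of this span, the other 6 were not called. B73_21PHAS_6424, which lies beside B73_21PHAS_6425, had 525, 456 and 494 CPM in ago18HT and 604, 420 and 419 CPM in ago18HM (adjusted p = 0.902). B73_21PHAS_6429, on the other side of the 3 loci, had 430, 470 and 394 CPM against 502, 503 and 541 CPM (adjusted p = 0.263). Loci that fell thus lay directly beside loci that were not called.

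The 5 remaining decreases were small and scattered. B73_21PHAS_54542 (chromosome 10, 119083844 to 119084591) had 84.8, 98.7 and 97.3 CPM in ago18HT and 57.0, 54.4 and 54.2 CPM in ago18HM (log2 fold change -0.75 ± 0.15, adjusted p = 0.00369). Together with the 3 neighbours on chromosome 1 it stayed called whichever 5 mm library was left out. B73_21PHAS_11726 (chromosome 2) had 329, 394 and 366 CPM against 213, 246 and 253 CPM (-0.61 ± 0.16, adjusted p = 0.0160). B73_21PHAS_54591, B73_21PHAS_56385 and B73_21PHAS_21103 had log2 fold changes of -0.81, -0.73 and -0.64 (adjusted p = 0.0287, 0.0437 and 0.0340). The number called lower was 4 without ago18HT-5mm replicate 3, 5 without ago18HM-5mm replicate 2 and 5 without ago18HT-2mm replicate 3.

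The increases were at most 2.27-fold by group means, and ago18HM replicate 1 was the highest library at 14 of the 17 loci. B73_21PHAS_17107 (chromosome 3, overlapping LOC103650339) had 4.88, 7.42 and 5.89 CPM in ago18HT and 15.7, 10.5 and 14.98 CPM in ago18HM (log2 fold change 1.06 ± 0.25, adjusted p = 0.00935). B73_21PHAS_11720 (chromosome 2) had 698, 774 and 762 CPM against 2621, 1074 and 1180 CPM (1.004 ± 0.32, adjusted p = 0.0455). B73_21PHAS_54525 (chromosome 10) had 195, 140 and 165 CPM against 558, 233 and 283 CPM (1.01 ± 0.31, adjusted p = 0.0437). At both of the latter loci ago18HM replicate 1 stood above the other ago18HM libraries, which were in turn above ago18HT.

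B73_21PHAS_48352 (chromosome 9) had 72.9, 82.7 and 79.0 CPM in ago18HT and 228, 117 and 137 CPM in ago18HM (0.97 ± 0.23, adjusted p = 0.00908). B73_21PHAS_54320, which overlaps LOC100191440 on chromosome 10, and B73_21PHAS_17599 on chromosome 3 had log2 fold changes of 0.96 and 0.80 (adjusted p = 0.0151 and 0.0212). Without ago18HM replicate 1, 11 loci were called higher, and 8 were called without ago18HT-5mm replicate 2. Only 4 of the 17 stayed called whichever 5 mm library was left out, B73_21PHAS_17107 and B73_21PHAS_48352 among them.

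**Figure D4:**
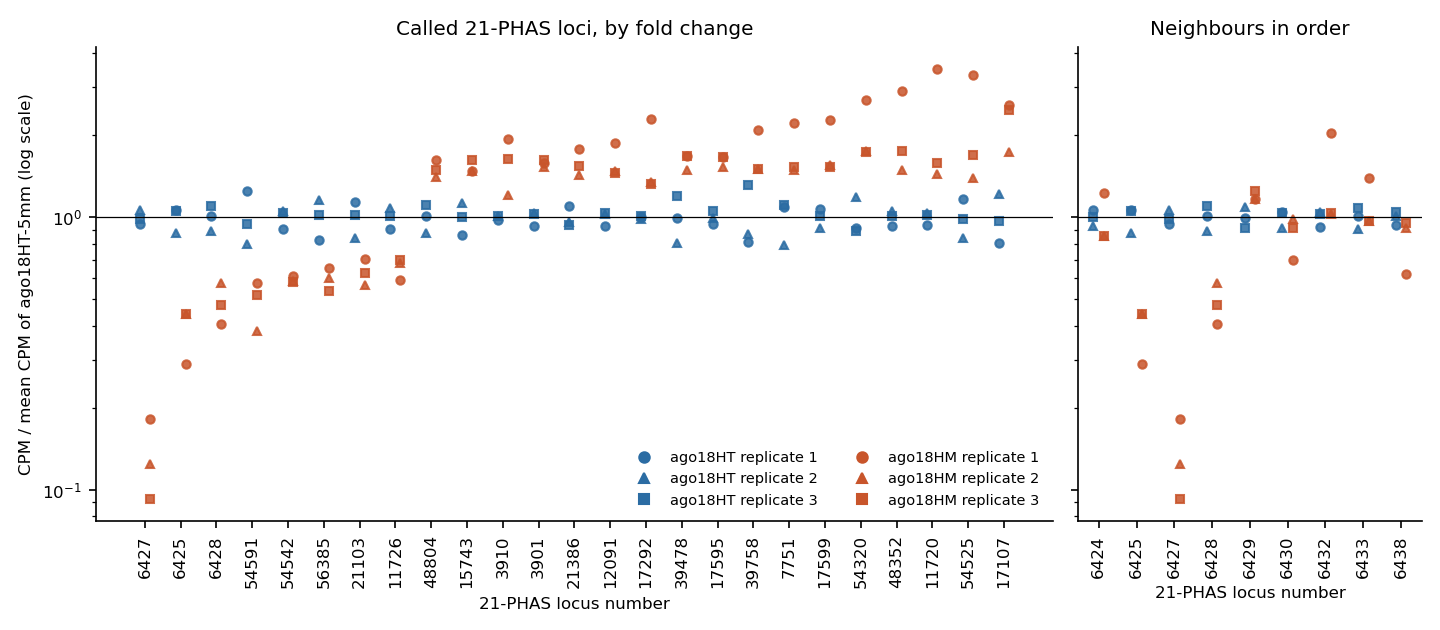
CPM of each 5 mm library divided by the ago18HT mean (log scale), for the 25 called 21-PHAS loci ordered by fold change (left) and for 9 neighbours in their order along chromosome 1 (right). B73_21PHAS_6425, B73_21PHAS_6427 and B73_21PHAS_6428 fall while the 6 loci beside them overlap or lie near the line, and ago18HM replicate 1 is highest at 14 of the 17 increased loci.

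The most abundant 21-PHAS locus, B73_21PHAS_21116 (chromosome 4), had 2085, 1884 and 2100 CPM in ago18HT and 1975, 2595 and 2728 CPM in ago18HM. B73_21PHAS_21386, which overlaps the long noncoding RNA gene LOC103652799, had 1352, 1188 and 1154 CPM against 2205, 1764 and 1900 CPM. It was the only called locus of the 4 highest (log2 fold change 0.66 ± 0.15, adjusted p = 0.00844). B73_21PHAS_12188 and B73_21PHAS_4258 had log2 fold changes of 0.19 (95% interval -0.17 to 0.54) and 0.08 (-0.21 to 0.38).

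A stretch of chromosome 1 set libraries of the same genotype apart. At 11 loci, chosen after their values were seen, both ago18HT replicate 3 and ago18HM replicate 1 were at least 3 times higher than each of the other 4 libraries. All 11 lay between positions 290185167 and 291858704, where 9 of 36 21-PHAS and both 24-PHAS loci behaved so. The 4 loci of the whole table with the largest spread within genotypes were among them. B73_21PHAS_7740 had 2.36, 2.37 and 208 CPM in ago18HT and 275, 2.95 and 2.40 CPM in ago18HM.

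B73_21PHAS_7738, with the same major RNA, had 6.14, 3.71 and 205 CPM against 298, 2.77 and 4.34 CPM. B73_21PHAS_7757 had 1.10, 1.34 and 83.1 CPM against 98.2, 0.92 and 0.75 CPM, and B73_21PHAS_7645 had 1.42, 0.10 and 21.8 CPM against 122.7, 0.74 and 0.75 CPM. None of the 11 was called. Some interspersed loci were alike in all libraries, such as B73_21PHAS_7661, with 589, 533 and 629 CPM in ago18HT and 572, 636 and 630 CPM in ago18HM. Others showed a weaker split of the same kind, such as B73_21PHAS_7737, with 185, 160 and 353 CPM in ago18HT and 749, 166 and 189 CPM in ago18HM. The cause was not tested. Of the 38 loci in the stretch, B73_21PHAS_7751 was called (higher in ago18HM, adjusted p = 0.0196).

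**Figure D5:**
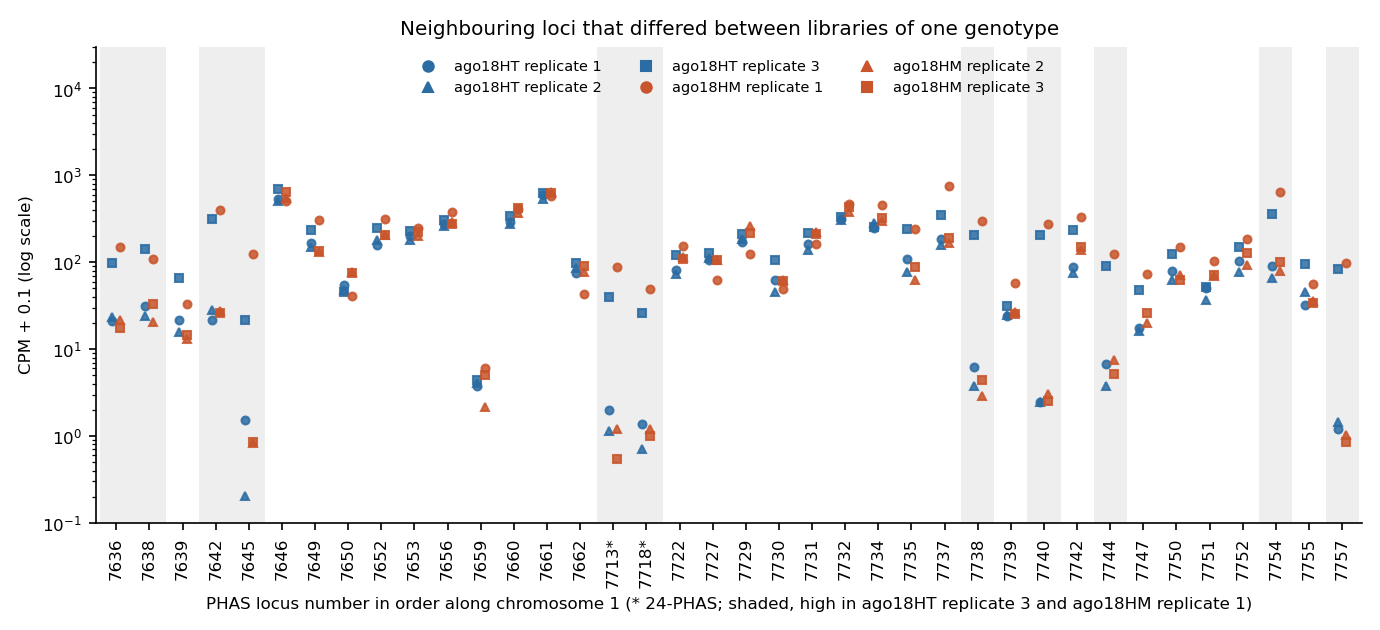
CPM + 0.1 (log scale) of 38 neighbouring loci in their order along chromosome 1 in each 5 mm library, with the 11 split loci shaded. In the shaded loci ago18HT replicate 3 and ago18HM replicate 1 lie together at least 3-fold above the other 4 libraries, and most unshaded loci show no such gap.

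The genotype difference at 5 mm was also set against that at 2 mm, when anthers were in meiosis. The interaction term, the log2 fold change at 5 mm minus that at 2 mm, was negative and called at 52 of 154 meiotic loci, against 8.04% of all loci. At B73_24PHAS_48391 the 2 mm libraries had 852, 1574 and 1577 CPM in ago18HT and 380 and 386 CPM in ago18HM. From 2 to 5 mm its mean thus went from 383 to 55.0 CPM in ago18HM and from 1334 to 2161 CPM in ago18HT (interaction -3.52 ± 0.39, adjusted p = 0.00417). At B73_24PHAS_4294 the decrease was already deep at 2 mm, with means of 6978 CPM in ago18HT and 236 CPM in ago18HM. Its interaction was not called (-0.33 ± 0.45, adjusted p = 0.751), which leaves room for a difference in either direction. The count of 52 was sensitive to the libraries used and was 12 without ago18HM-2mm replicate 2 and 17 to 21 when each of the 6 libraries of 5 mm was left out in turn.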

How the data were processed

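TraPR small RNA libraries (RealSeq-AC kit) of 5 mm and 2 mm maize anthers were used, grouped by the group label. The authors mapped reads to B73 RefGen_v5 with Bowtie 1.3.1, counted them over PHAS loci with featureCounts 1.6.3 and deposited CPM values made with edgeR 4.0.2. Reads with several positions were counted at each, so loci of similar sequence share reads. Which reads the CPM denominator covers is not given in the sources used here. All values were whole multiples of a step per library, from which reads and denominators were recovered. For scale, 3 reads are 0.169 to 0.554 CPM at 5 mm, and values above 0 but below this level occur. Premeiotic and meiotic 24-PHAS loci, locus positions and major RNAs follow the study's annotation, which classed loci on other libraries. None of its abundances was used.

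All 659 loci passed a filter of 1 CPM in at least 2 libraries. Log2(CPM + 1) of all 11 libraries was fitted with limma 3.58.1 in R 4.3.3 (4 group means, trended eBayes). Its two-sided p-values received a Benjamini-Hochberg adjustment across the 659 loci. The pseudocount of 1 understates changes of low loci. Class sums, shares and concentration were compared by exact permutation tests with scipy 1.17.1, adjusted over 8 tests. RefSeq overlaps used Zm-B73-REFERENCE-NAM-5.0 without strand. The script was tested on simulated data. Alternatives covered pseudocount, filters, scaling, fit settings, a replicate block and each library left out. A limma-voom fit on recovered reads and fits without loci sharing a major RNA were added after the data were seen. The members, lists and rules were chosen with earlier results of these data known. Named loci were those with the largest changes, the highest means, the highest means among uncalled loci, every call in small sets, and the largest spread. Neighbouring loci and the stretch of chromosome 1 were chosen after their values were seen. Replicates came from distinct plants.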

Additional observations from a re-analysis of the deposited data

Results flagged for a closer look

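The genotype difference at 5 mm differed from that at 2 mm by the test of the difference itself at 52 meiotic 24-PHAS loci (all lower at 5 mm), at 1 premeiotic 24-PHAS locus (higher) and at 1 21-PHAS locus (lower). The premeiotic locus was B73_24PHAS_20630, with an interaction of 1.49 ± 0.35 (SE, limma adjusted p = 0.0380), and the background of higher terms was 0.152% of all loci. It was lost when most single libraries were left out.

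Of the named meiotic loci, the terms were -3.74 at B73_24PHAS_35075, -3.63 at B73_24PHAS_35082, -3.52 at B73_24PHAS_48391, -2.99 at B73_24PHAS_35073, -2.06 at B73_24PHAS_30735 and -2.05 at B73_24PHAS_30716. The first pair shares a major RNA, as does the last pair, so these terms cover 4 different major RNAs. In ago18HT-2mm, replicate 1 had 126 CPM at B73_24PHAS_35075 where replicates 2 and 3 had 811 and 720 CPM. The 21-PHAS locus was B73_21PHAS_6427, with a term of -1.63 ± 0.35 (adjusted p = 0.0301). Its 2 mm libraries had 46.6, 48.9 and 46.1 CPM in ago18HT and 25.9 and 18.2 CPM in ago18HM, so it was below ago18HT at both lengths.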

How the results depend on the processing

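The meiotic decrease kept its direction in every alternative run. At least 126 of the 130 meiotic loci were called lower again in each alternative that tested the whole table, and 127 to 130 meiotic loci were called with each library left out (all 24-PHAS 128 to 132). The meiotic sum ratio of 0.0602 ranged from 0.056 to 0.0678 over left-out libraries. Each named call was followed over 25 or 26 alternative fits, which reuse the same libraries. Counted as pairs of locus and fit, named meiotic calls were lost in 0 of 308 and named 21-PHAS calls in 84 of 386.

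21-PHAS calls were the least stable. Against 17 higher and 8 lower, the counts were 0 and 38 with the meiotic loci out of the denominator, 33 and 5 with median ratios, and 5 and 4 at an adjusted p below 0.01. Centring gave 8 higher. Left-out libraries gave 8 to 25 higher and 4 to 8 lower. The 21-PHAS sum ratio of 1.17 turned to 0.894 with the meiotic loci out of the denominator, and ranged from 1.14 to 1.20 over left-out libraries.

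For premeiotic loci, 2 were lower with the meiotic loci out of the denominator, 2 were lower and 2 higher with only the 5 mm libraries, and left-out libraries gave 1 to 2 lower and 0 to 4 higher. The 4 higher came without ago18HT-2mm replicate 1. The premeiotic sum ratio of 1.01 (exact permutation p = 0.9) turned to 0.774 with the meiotic loci out of the denominator and to 0.863 over the 21-PHAS sum, and ranged from 0.888 to 1.14 over left-out libraries.

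For the interaction, the 52 meiotic loci became 34 with a pseudocount of 5, 25 after centring and 12 to 55 over left-out libraries. The 1 premeiotic and the 1 21-PHAS interaction ranged from 0 to 1, and centring gave 0 for the latter.

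Replicate numbers did not pair the libraries at 5 mm. Deviations of same-numbered libraries had r between -0.317 and 0.241, and 1 of the 3 pairs was over 0.1. With a replicate block over all libraries, 2 premeiotic loci were lower. With a replicate block over only the 5 mm libraries, 7 21-PHAS loci were higher and 5 lower, 1 premeiotic locus was higher, and 129 meiotic loci were lower. The mean ratio of same-numbered libraries under the replicate block was 0.991 for the premeiotic sum.

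The cause of these shifts was not tested, except where a scaling changes CPM by construction. The planned count-model fits on recovered reads were not run, since too few low values were present for a separate test of whole reads. The recovered reads themselves deviated from whole numbers by at most 6.35e-05, and limma-voom was fitted on them. Loci under about 20 reads limit what depth can show.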
